A study of Mus musculus with 4 samples.

Results

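Transcripts of skeletal muscle were followed in RNA from the epidermis of mice whose keratinocytes lack the calcium sensors STIM1 and STIM2. The set holds 36 genes of the contractile apparatus, calcium handling and energy metabolism of striated muscle, taken by gene name from a table of 56493 genes, and all 36 were found there. The conditional knockout (cKO) mice carry a Cre recombinase under the keratin 14 promoter, which is active in basal cells of stratified epithelium, and lack Stim1 and Stim2 in that tissue. The control mice (labelled F/F) carry the floxed Stim1 and Stim2 alleles. Dorsal skin was shaved and the epidermis was taken off the dermis with sodium thiocyanate before RNA was extracted. Each genotype has 2 libraries. Age, sex and strain are not given in the labels, and neither is whether a library came from 1 animal or from several, so p-values measure only the spread between these samples.

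In skeletal muscle, thick filaments of myosin slide along thin filaments of actin when calcium binds troponin C. The calcium leaves the sarcoplasmic reticulum through the ryanodine receptor, which is opened by the voltage sensor of the neighbouring membrane, and is pumped back by the SERCA calcium pump. Fast and slow fibres build this apparatus from different genes, so the isoforms that are present tell which fibres the RNA came from. Beneath the dermis of mouse back skin lies a thin sheet of striated muscle, the panniculus carnosus. Keratinocytes do not build sarcomeres, though tropomyosins and desmin are also made by other contractile cells.

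The libraries were shallow, with 200293 and 322426 counts in control replicates 1 and 2 and 282190 and 118858 counts in cKO replicates 1 and 2. Levels are given as CPM, read counts scaled to the library size after TMM normalization. A count of 0 allows up to 3 counts, which is 16.01 and 9.58 CPM in the control libraries and 12.1 and 33.7 CPM in the cKO libraries. Fold bounds below set 3 counts against the pooled control level unless a control library is named. They take the control level as exact, so counting error in control is left out. Stim1 had 24 and 62 counts in control and 23 and 6 in cKO, and Stim2 had 3 and 18 counts in control and 0 and 1 in cKO. Stim1 did not pass the threshold (edgeR log2 fold change -0.98, adjusted p 0.671), Stim2 had too few counts to be tested, and whether these 3' reads fall outside the deleted exons was not tested. The labelled tissue was met by its markers, since all 9 keratinocyte markers examined had counts. Their summed level was 12577 and 19295 CPM in control and 23052 and 15037 CPM in cKO.

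The sequences just upstream of the genes with the clearest differences are shown first, because these are the genes that the test called lower in cKO. RefSeq promoters (GRCm38.p6) were matched for 29 of the 36 genes, and the 250 bases before the first listed start are used. Capitals mark the muscle E-box CAGCTG, the MCAT element CATTCC, the MEF2 element and the CArG box (given by name), each on both strands, and the TATA box TATAAA on the gene's strand.
Myh4, chr11:67237562-67237811, plus strand: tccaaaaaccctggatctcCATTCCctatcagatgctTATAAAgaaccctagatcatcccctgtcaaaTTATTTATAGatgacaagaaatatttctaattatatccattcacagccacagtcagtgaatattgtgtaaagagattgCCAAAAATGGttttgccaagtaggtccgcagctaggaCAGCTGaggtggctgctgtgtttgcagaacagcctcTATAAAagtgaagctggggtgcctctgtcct
Pvalb, chr15:78206401-78206650, minus strand: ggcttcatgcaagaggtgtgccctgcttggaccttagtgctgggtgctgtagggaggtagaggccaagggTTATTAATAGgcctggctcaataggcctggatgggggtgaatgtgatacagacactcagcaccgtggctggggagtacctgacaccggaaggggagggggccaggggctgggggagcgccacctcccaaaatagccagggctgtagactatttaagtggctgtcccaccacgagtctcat
Acta1, chr8:123894776-123895025, minus strand: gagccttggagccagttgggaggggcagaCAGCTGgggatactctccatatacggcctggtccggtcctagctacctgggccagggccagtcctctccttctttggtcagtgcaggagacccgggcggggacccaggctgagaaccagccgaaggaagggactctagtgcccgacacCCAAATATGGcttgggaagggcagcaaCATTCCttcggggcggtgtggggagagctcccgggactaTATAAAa
Tnnc2, chr2:164779735-164779984, minus strand: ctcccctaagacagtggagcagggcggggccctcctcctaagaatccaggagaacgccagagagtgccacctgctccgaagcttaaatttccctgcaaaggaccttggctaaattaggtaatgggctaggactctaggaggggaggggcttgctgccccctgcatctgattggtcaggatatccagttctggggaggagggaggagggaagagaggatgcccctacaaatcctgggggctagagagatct

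The Myh4 window held 1 muscle E-box, 1 MEF2 element, 1 CArG box, 1 MCAT element and 2 TATA boxes. The Acta1 window held the same elements apart from MEF2, with 1 TATA box. The Pvalb window held 1 MEF2 element, and the Tnnc2 window held none of these 5 motifs. Across the 29 genes the muscle E-box was present in 13, against 12.8% of the 27018 promoters searched. The wider E-box CANNTG, of which CAGCTG is a special case, was present in 25 of the 29 genes and in 66.05% of all promoters. MCAT was present in 11 of the 29 genes and in 12.6% of all promoters, MEF2 in 5 and 3.005%, the CArG box in 3 and 1.40%, and the TATA box in 4 and 8.12%. These matches describe letters in a window and were not tested.

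Control epidermis held counts for 29 of the 36 genes. Together the 36 genes took 0.267% of control replicate 1 (95% Clopper-Pearson interval 0.245% to 0.290%) and 0.234% of control replicate 2 (0.217% to 0.251%). In cKO they took 0.0245% of replicate 1 (0.01903% to 0.0309%) and 0.0799% of replicate 2 (0.0647% to 0.0977%). These intervals cover counting error only. Without Tpm1, Tpm2 and Des, which other contractile cells express, the remaining 33 genes had 425 and 509 counts in control and 18 and 43 counts in cKO. Both cKO libraries thus lay below both control libraries on either sum. In bulk tissue, fewer muscle fibres in a sample and less RNA per fibre cannot be told apart.

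**Figure D1:**
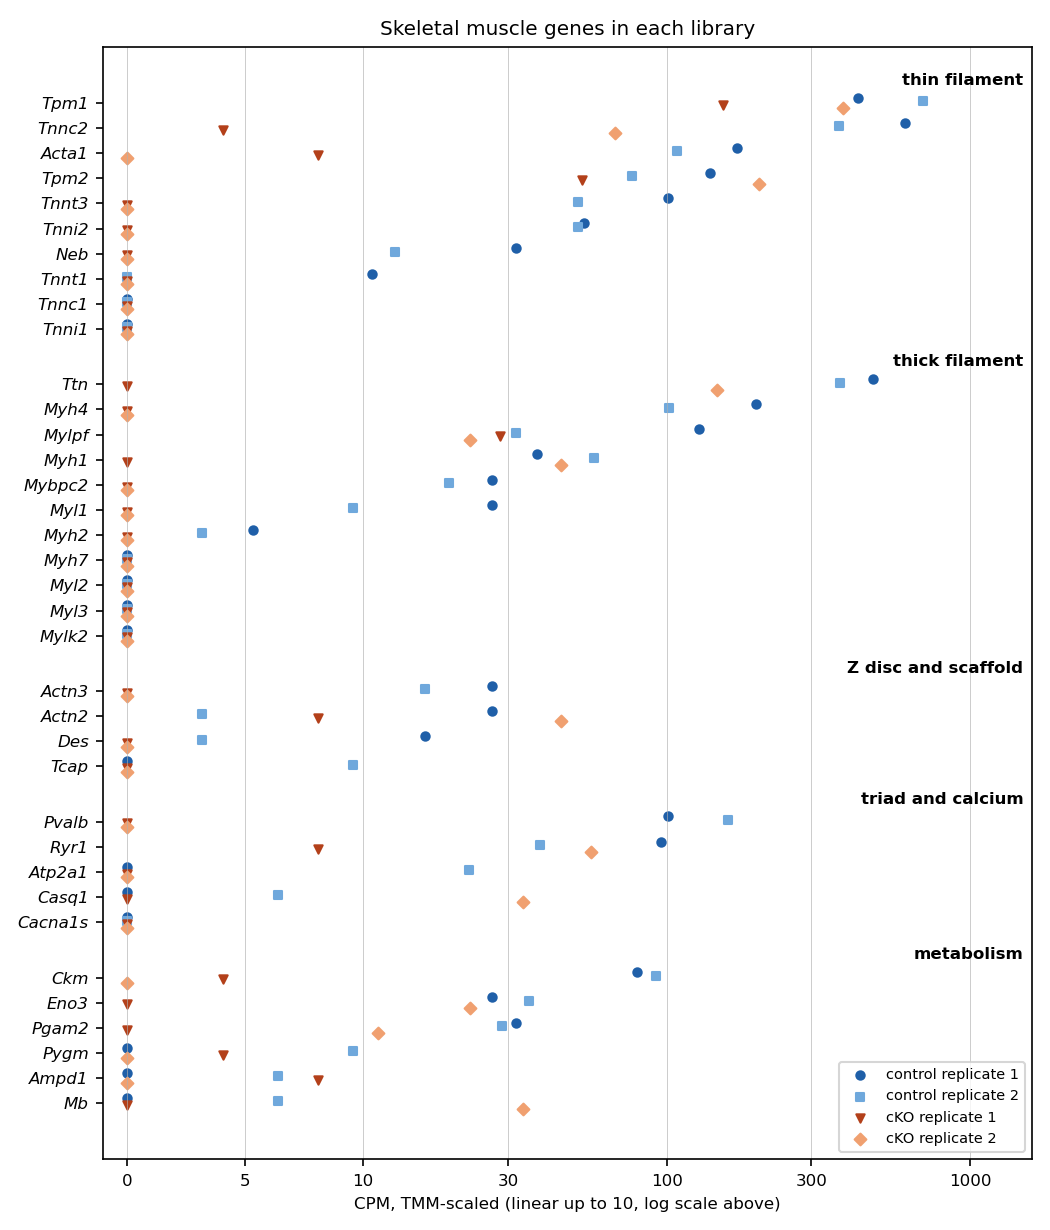
Level of each of the 36 genes (rows, by role) in each library, in CPM on an axis that is linear up to 10 and logarithmic above. Circles and squares are the control replicates, triangles and diamonds the cKO replicates. Myh4, Pvalb, Tnnt3 and Tnni2 sit at 0 in both cKO libraries, while Tpm2 shows no separation of the groups.

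The fibre type of the control RNA was read from 6 components with separate fast and slow genes. The 8 fast isoforms had 217 and 212 counts in the control libraries. The 6 slow isoforms had 2 and 0 counts. Fast isoforms therefore made up 99.5% of these counts over both control libraries (95% Clopper-Pearson interval 98.3% to 99.9%), and 99.8% when counts were divided by gene length. The 2 slow counts were both of Tnnt1, slow troponin T, in control replicate 1. Myh7 (slow myosin heavy chain), Myl2 and Myl3 (slow light chains), Tnnc1 (slow troponin C) and Tnni1 (slow troponin I) had 0 counts in all 4 libraries.

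**Figure D2:**
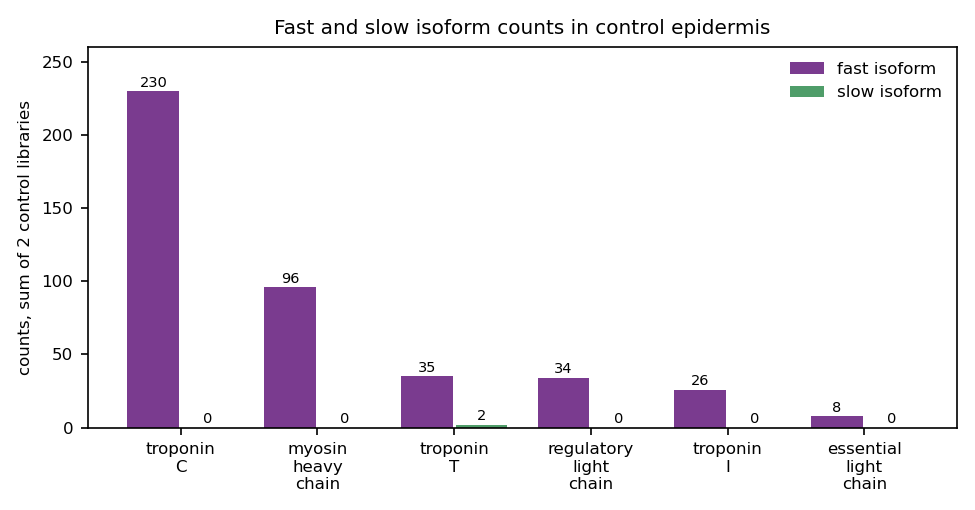
Counts of fast and slow isoforms summed over both control libraries (vertical axis) for 6 components of the sarcomere (horizontal axis). Fast troponin C had 230 counts and slow troponin C 0, and troponin T was the component with slow counts, 2 against 35.

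Of the 4 myosin heavy chains in the set, Myh4 had the most control counts. Myh4, the heavy chain of type IIB fibres, had 37 and 32 counts in control. Myh1, of type IIX fibres, had 7 and 18 counts. Myh2, of type IIA fibres, had 1 count in each control library. Myh4 thus made up 82.2% of the counts of the 4 genes, Myh7 included, in control replicate 1 (95% Clopper-Pearson interval 67.9% to 91.998%). In control replicate 2 its share was 62.7% (48.1% to 75.9%). Whether these shares differ was not tested. Outside the set, Myh8 (the neonatal heavy chain) had 4 and 3 control counts, more than Myh2, and Myh13 (of extraocular muscle) had 2 and 1, while Myh3 (embryonic) had 0. These genes were named after their values were seen. With them included, the share of Myh4 was 72.5% (58.3% to 84.1%) in the first control library and 58.2% (44.1% to 71.35%) in the other. Over both libraries Myh7 had 0 of the 96 counts of the 4 members, which allows a share of up to 3.13%. Per kilobase, the mean control level was 24.9 CPM for Myh4, 7.46 CPM for Myh1 and 0.598 CPM for Myh2. Fast-fibre genes without a slow partner in the set were also present. Pvalb (parvalbumin, the calcium buffer of fast fibres) had 19 and 50 counts, Actn3 (fast alpha-actinin) 5 in each library, Mybpc2 (fast myosin-binding protein C) 5 and 6, and Atp2a1 (the SERCA pump of fast fibres) 0 and 7.

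With edgeR's quasi-likelihood test, 4 of the 36 genes were lower in cKO at a Benjamini-Hochberg adjusted p under 0.05, and 0 were higher. The 4 are Myh4, Pvalb, Tnnc2 and Acta1. Over all 4243 genes tested, 0.189% were called lower and 0.66% higher. At an unadjusted p under 0.05 the muscle counts were 9 lower and 0 higher, against 4.17% and 4.22% of all genes tested. At the adjusted threshold DESeq2 and limma-voom also called 0 higher, against 35 and 12 of all genes tested. The test included 11 of the 36 genes. Acta1, Tnnc2, Tnnt3, Tnni2, Myh4, Ttn, Pvalb and Ckm passed the count filter through their control counts, so the number called is no support for a fall. The median log2 fold change of the 11 was -4.45, against 0.01 over all genes tested, with the same limit. The call depended on the tool. DESeq2 called 2 of the genes lower, against 8 of all 4243 genes tested. Limma-voom called 0, against 3 of all genes tested. At an unadjusted p under 0.05 limma-voom had 9 lower, and the share of all genes at that cut was not taken. The number called also changed when 1 library was left out. Without a count filter 7 of the 29 genes with a count were called lower, against 0.151% of all genes, and these were the 4 with Ttn, Ckm and Tnnt3. The replicate block left 1, Myh4, and this was the only gene called lower over all genes tested.

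Over the whole set, both cKO values lay below both control values in 18 of the 29 genes with any count, against 15% of all 17179 genes with a count. Among the tested genes this held for 9 of the 11, against 19.6% of all genes tested. Most of the 11 passed the count filter through their control counts, so this number is no support for a fall either. In 0 of the 29 did both cKO values lie above both control values. Among the tested genes it was 0 of the 11, against 18.9% of all genes tested. Of the 18 members with at least 10 counts over both control libraries, 7 were at 0 in both cKO libraries. Among all 6753 genes with that many control counts, 1.13% were. The 7 are Myh4, Pvalb, Tnnt3, Tnni2, Mybpc2, Actn3 and Neb. Picking genes by control counts favours lower values in cKO, and the members and all genes were not matched for abundance. Mybpc2, Actn3 and Neb had only 11, 10 and 10 control counts.

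In the thin filament, Tnnc2 (fast troponin C, chromosome 2, 164619081 to 164621887, minus strand) binds the calcium that switches contraction on. It had 114 and 116 counts in control and 1 and 6 in cKO, or 489 ± 168 CPM (SD, n = 2) against 35.7 ± 44.8 CPM (SD, n = 2). The difference was -4.28 on the log2 scale (standard error 0.79, edgeR adjusted p 0.0207). Both cKO libraries were far below both control libraries, but they differed from each other. Replicate 1 was at 0.880% of the pooled control level (95% exact counting interval 0.0222% to 4.95%) and replicate 2 at 14.7% (5.33% to 32.4%). The call was lost with DESeq2 (adjusted p 0.403), limma-voom (0.135) and the replicate number as a block (0.104). Exons of Tnnc2 share 592 bases, 74.0% of their length, with Ube2c on the opposite strand. Ube2c had 8 and 6 counts in control and 5 and 1 in cKO.

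Acta1 (skeletal alpha-actin, chromosome 8, 124618508 to 124621490, minus strand) forms the thin filament itself. It had 32 and 34 counts in control and 2 and 0 in cKO, which is 4.51% of the pooled control level (95% exact counting interval 0.535% to 17.0%). The difference was -4.45 on the log2 scale (standard error 0.90, edgeR adjusted p 0.0329). Both cKO counts lie in replicate 1, and against replicate 2 alone Acta1 was at least 3.91-fold lower. Acta1 was no longer called without control replicate 1 (adjusted p 0.204), with DESeq2 (0.0726), with limma-voom (0.503) or with the replicate block (0.0839).

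The other fast troponin subunits were at 0 in both cKO libraries. Tnnt3 (fast troponin T, which ties the complex to tropomyosin) had 19 and 16 counts in control. With 3 counts over both cKO libraries allowed, Tnnt3 was at least 7.84-fold lower, or 5.73-fold with control replicate 2 alone. It did not pass the threshold (edgeR adjusted p 0.0991) but did without a count filter (0.00614), with the filter at 10 CPM on average (0.0301) and without cKO replicate 2 (0.0273). Tnni2 (fast troponin I, the inhibitory subunit) had 10 and 16 control counts and was at least 5.82-fold lower (edgeR adjusted p 0.210). Neb (nebulin, the ruler of the thin filament) had 6 and 4 counts in control and 0 in both cKO libraries. It was at least 2.24-fold lower, or 1.43-fold with control replicate 2 alone. Against cKO replicate 2 alone the bound was 2.07-fold for Tnnt3 and 1.54-fold for Tnni2, and Neb had none.

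Tropomyosin, which winds along the actin filament, is also made by non-muscle cells. Tpm1 had 80 and 219 counts in control and 38 and 34 in cKO, or 563 ± 193 CPM against 268 ± 162 CPM (SD, n = 2 each). The groups did not overlap, but the difference of -1.14 on the log2 scale (standard error 0.51) did not pass the threshold (edgeR adjusted p 0.565). Without cKO replicate 1 it was -0.61, and without cKO replicate 2 it was -1.87. Tpm2 had 26 and 24 counts in control and 13 and 18 in cKO. The cKO values of Tpm2, 52.6 and 202 CPM, lay on either side of the control values of 139 and 76.6 CPM. Its difference of 0.12 on the log2 scale (standard error 0.66) was smaller than the spread (edgeR adjusted p 0.996) and turned negative with library totals as the scaling, with limma-voom, without control replicate 2 and without cKO replicate 2.

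In the thick filament, Myh4 (chromosome 11, 67128855 to 67151272, plus strand) had 0 counts in both cKO libraries. Against 37 and 32 control counts this was at least 15.5-fold lower (edgeR adjusted p 0.0146), and at least 4.09-fold against cKO replicate 2 alone. With control replicate 2 alone the bound was 11.5-fold. The 95% exact counting interval, which includes control error, reached 8.17% of the pooled control level. The call was lost without control replicate 1 (adjusted p 0.107) and with limma-voom (0.361). Myh1 did not follow it in full. Myh1 had 0 counts in cKO replicate 1, where the control level would give 12.4, but 4 counts in cKO replicate 2, where it would give 4.44. Mylpf (fast regulatory light chain) had 24 and 10 counts in control and 7 and 2 in cKO, which is 39.4% of the pooled control level (95% exact counting interval 16.6% to 83.9%). The groups did not overlap for Mylpf. The lower control value was 31.9 CPM and the higher cKO value 28.3 CPM. Mybpc2 was at 0 in both cKO libraries, at least 2.46-fold lower, with no bound from cKO replicate 2 alone. Its 95% exact counting interval reached 59.3% of the pooled control level.

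Ttn (titin, chromosome 2, 76534324 to 76812891, minus strand) is the giant spring that joins the thick filament to the Z disc. It had 90 and 117 counts in control, 0 in cKO replicate 1 and 13 in cKO replicate 2. At the control level cKO replicate 1 would have had 102 counts and cKO replicate 2 36.8. The cKO libraries therefore lay at 0% and 35.3% of the pooled control level. The difference was -2.99 on the log2 scale (standard error 0.95, edgeR adjusted p 0.272). Against cKO replicate 1 alone Ttn was at least 34.1-fold lower. The log2 difference was -1.58 without cKO replicate 1. Ttn passed the threshold without a count filter (adjusted p 0.000107) and without cKO replicate 2, where the cKO arm is 1 library at 0 and the spread comes from the control libraries. Per kilobase the mean control level of Ttn was 3.64 CPM against 612 CPM for Tnnc2. Reads of these libraries come from the 3' end of transcripts, so division by gene length understates long genes such as Ttn.

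Of the triad and calcium genes, Pvalb (chromosome 15, 78075314 to 78090600, minus strand) was counted 19 and 50 times in control and not at all in cKO. It was at least 15.5-fold lower (edgeR adjusted p 0.0163), and at least 4.09-fold against cKO replicate 2 alone. With control replicate 1 alone the bound was 11.4-fold, and the 95% exact counting interval reached 8.17% of the pooled control level. The call was lost without control replicate 2 (adjusted p 0.206), with the replicate block (0.0532) and with limma-voom (0.342). Ryr1, the ryanodine receptor of skeletal muscle, had 18 and 12 counts in control and 2 and 5 in cKO. The cKO replicate 2 value of 56.2 CPM lay between the control values of 96.05 and 38.3 CPM, so the groups overlapped, and the difference of -1.36 on the log2 scale (standard error 0.98) was not past the threshold (edgeR adjusted p 0.819). The cKO libraries were at 13.5% (95% exact counting interval 1.56% to 53.2%) and 93.8% (28.4% to 244%) of the pooled control level, and without control replicate 1 the log2 difference was -0.51. All 7 counts of Atp2a1 came from control replicate 2. Casq1, the calcium store protein of the sarcoplasmic reticulum, had 2 counts in control replicate 2 and 3 in cKO replicate 2. Cacna1s, the voltage sensor, had 0 counts throughout.

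At the Z disc, Actn3 was at 0 in both cKO libraries, at least 2.24-fold lower, with no bound from cKO replicate 2 alone. Actn2, the alpha-actinin found in all fibre types, had 5 and 1 counts in control and 2 and 4 in cKO, so the groups overlapped. Des (desmin) had 3 and 1 counts and Tcap (telethonin) 0 and 3 counts in control, and both were at 0 in cKO, too few to size a change.

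Among the metabolic genes, Ckm (muscle creatine kinase, which buffers ATP) had 15 and 29 counts in control and 1 and 0 in cKO. That is 3.38% of the pooled control level (95% exact counting interval 0.0838% to 19.9%). The difference was -4.64 on the log2 scale (standard error 1.10, edgeR adjusted p 0.0809). Ckm passed the threshold with library totals as the scaling, with both other filters and without cKO replicate 2 (adjusted p from 0.01695 to 0.0469). Its single cKO count lies in replicate 1, and against replicate 2 alone Ckm was at least 2.61-fold lower. Exons of Ckm share 21.4% of their length with a long non-coding RNA of the opposite strand, A930016O22Rik, which had 0 and 1 counts in control and 1 and 0 in cKO. Pgam2 (muscle phosphoglycerate mutase) had 6 and 9 counts in control and 0 and 1 in cKO. Eno3 (muscle enolase) had 5 and 11 counts in control and 0 and 2 in cKO. For both, the groups did not overlap, and neither had enough counts to be tested. Mb (myoglobin, the oxygen store of oxidative fibres) had 2 counts in control replicate 2 and 3 in cKO replicate 2. Ampd1 had 2 counts in control replicate 2 and 2 in cKO replicate 1, and Pygm had 3 and 1 in the same libraries. Of the remaining members, Myl1 (fast essential light chain) had 5 and 3 counts in control and 0 in cKO, and Mylk2 had 0 throughout.

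The level of these genes relative to control differed between the cKO libraries. If each gene had kept its pooled control level, 20 members would have had 3 or more counts in cKO replicate 1 and 13 in cKO replicate 2. In cKO replicate 1, 13 of the 20 were at 0 and none reached the control level. In cKO replicate 2, 6 of the 13 were at 0 and 1, Tpm2, reached it. The 6 are Acta1, Ckm, Myh4, Tnnt3, Tnni2 and Pvalb. The 20 and the 13 were picked by their control counts, which favours lower values in cKO. The share over all genes at this cut was not taken, so these numbers describe the members only. Without Tpm1, Tpm2 and Des, the summed level was 3.90% of pooled control in cKO replicate 1 (95% exact counting interval 2.30% to 6.20%) and 25.9% in cKO replicate 2 (18.6% to 35.2%). For all 36 genes these values were 10.9% (8.39% to 13.8%) and 41.5% (33.4% to 51.2%). The fast isoforms alone were at 3.77% (1.62% to 7.50%) and 15.7% (8.07% to 27.8%). The intervals of the cKO libraries do not overlap for any of these 3 sums, with replicate 2 the higher. They treat each count as independent and the library scaling as exact, and the use of molecular identifiers is not given. Counts of these genes remained in both libraries, but their source was not tested. Of the 18 counts of the 33 genes in cKO replicate 1, Mylpf gave 7. For 16 of the 29 genes the control level would give under 3 counts in cKO replicate 2, and their absence there is not detectable at this depth.

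**Figure D3:**
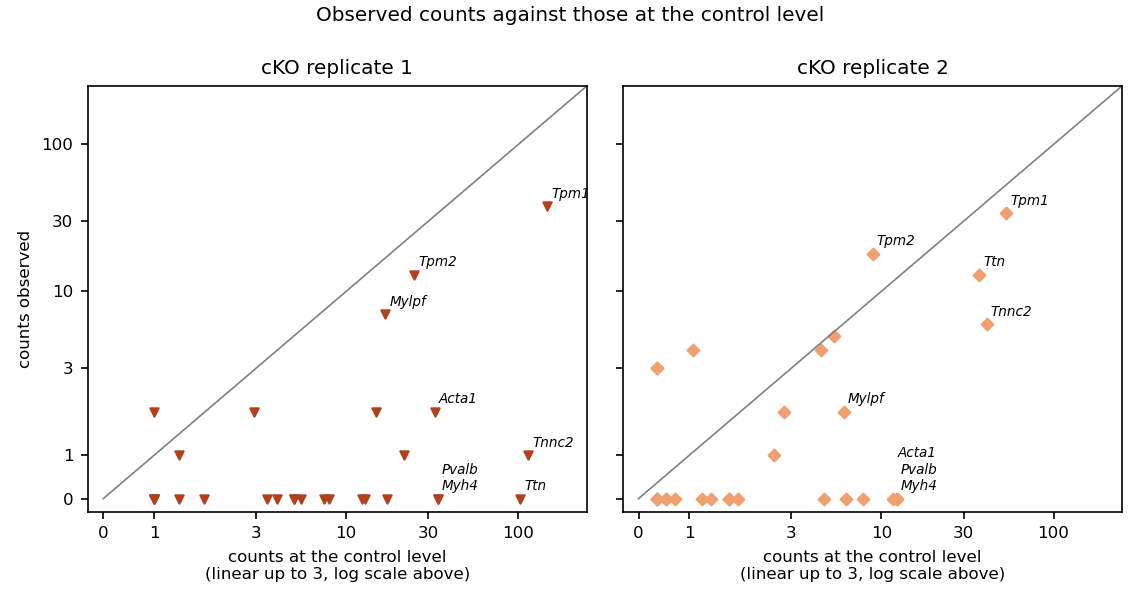
Counts observed in each cKO library (vertical axis) against the counts each gene would have at the pooled control level (horizontal axis), both linear up to 3 and logarithmic above. Points on the line have kept the control level. Ttn is at 0 in cKO replicate 1 and at 13 in cKO replicate 2.

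A further list of 68 striated muscle genes outside the set was examined in the same way. Of these, 42 had a control count and 34 of the 42 (81%) were at 0 in both cKO libraries, against 13 of the 29 members and 20.8% of all 15316 genes with a control count. These shares set genes of unlike abundance side by side. Most of the 42 had fewer than 10 control counts, where 0 in cKO can occur at this depth without a change. The 81% is therefore no measure of a loss. With at least 10 control counts it was 3 of 5 (60%), against 1.13% of all 6753 such genes. The 5 were also picked by their control counts, which favours lower values in cKO. Only Fbxo32, a ubiquitin ligase subunit that is not restricted to muscle, had enough counts to be tested, and it was not past the threshold, with 13 and 21 counts in control and 21 and 2 in cKO (edgeR log2 fold change -0.17, adjusted p 0.992). All 68 genes together had 101 and 125 counts in control and 36 and 8 in cKO. That was 32.2% of pooled control in cKO replicate 1 (95% exact counting interval 22.0% to 46.0%) and 19.9% in cKO replicate 2 (8.49% to 39.9%). Without Fbxo32 the other 67 genes had 88 and 104 counts in control and 15 and 6 in cKO. That was 15.8% of pooled control in cKO replicate 1 (95% exact counting interval 8.68% to 26.7%) and 17.6% in cKO replicate 2 (6.37% to 39.0%), and on neither sum did the intervals of the cKO libraries separate, unlike those of the members. Setting Fbxo32 apart was chosen after its values were seen. The next most abundant were Ankrd23, with 7 and 25 counts in control and 6 and 0 in cKO, and the muscle isoforms of cytochrome oxidase subunits. Cox6a2 had 14 and 9, Cox8b 13 and 1 and Cox7a1 7 and 1 counts in control, and all 3 were at 0 in cKO. Of 8 regulators of muscle formation and stem cells, Mef2c, which other cell types also express, had 13 and 4 counts in control and 0 and 1 in cKO. The other 7, among them Pax7, Myf5, Myod1 and Myog, had 0 counts in every library.

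Non-muscle genes that do the same work in other cells were examined beside them. The list of 22, with the cytoplasmic actins, non-muscle myosin and the ubiquitous tropomyosins, enolase and calcium pumps, summed to 8127 and 8070 CPM in control and 6502 and 8384 CPM in cKO. Of its 15 tested genes, edgeR called 0 in either direction at an adjusted p under 0.05, with 2 lower and 0 higher at an unadjusted p under 0.05, where 4.17% of all tested genes were lower. The 2, named after their values were seen, are calcium genes. Atp2b1 (a plasma membrane calcium pump) had 84 and 247 counts in control and 68 and 23 in cKO (edgeR log2 fold change -1.21, adjusted p 0.430). Itpr3 (a calcium release channel) had 33 and 44 counts in control and 17 and 5 in cKO (-1.29, adjusted p 0.494). Over the list, 6 of 22 genes had both cKO values under both control values, against 15% of all genes with a count. Actb gave much of the sum. Actb had 770 and 1116 counts in control and 830 and 419 in cKO (edgeR log2 fold change 0.07, adjusted p 0.997). Tpm3 had 157 and 202 counts in control and 129 and 41 in cKO (edgeR log2 fold change -0.59, adjusted p 0.815).

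Markers of other tissues beneath the epidermis were measured beside the muscle genes. The 10 fibroblast markers, 9 of them with a count, summed to 336 and 185 CPM in control and 283 and 989 CPM in cKO, and cKO replicate 2, where the sum of the 36 muscle genes was the higher of the cKO libraries, also had the highest fibroblast sum. Postn gave 57 of the 70 fibroblast counts of cKO replicate 1. Without Postn, a choice made after its values were seen, the other 9 markers summed to 299 and 150 CPM in control and 52.6 and 775 CPM in cKO. That was 25.5% of pooled control in cKO replicate 1 (95% exact counting interval 13.2% to 45.6%) and 377% in cKO replicate 2 (274% to 516%). Of the 4 fibroblast markers tested, Postn was higher in cKO, with 7 and 11 counts in control and 57 and 19 in cKO (edgeR log2 fold change 2.61, adjusted p 0.0331). Pdgfra was at 0 in all libraries. The 8 adipocyte markers, 5 of them with a count, summed to 277 and 99.0 CPM in control and 40.4 and 202 CPM in cKO. Within that list Car3, which muscle also expresses, had 32 and 23 counts in control and 3 and 0 in cKO (edgeR log2 fold change -3.73, adjusted p 0.0991). Adipoq had 0 and 1 counts in control and 1 and 7 in cKO. Cfd went the other way, with 4 and 6 counts in control and 0 in both cKO libraries. Fabp4 (11 and 1 in control, 2 and 9 in cKO) and Lpl (5 and 0 in control, 4 and 2 in cKO) were mixed. The 10 smooth muscle markers summed to 48.0 and 47.9 CPM in control and 36.4 and 33.7 CPM in cKO, and Acta2 had 2 counts in control replicate 1 and 0 elsewhere. The 6 endothelial markers had 1 count or none in each library. The part of other tissues in the muscle difference was not tested.

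**Figure D4:**
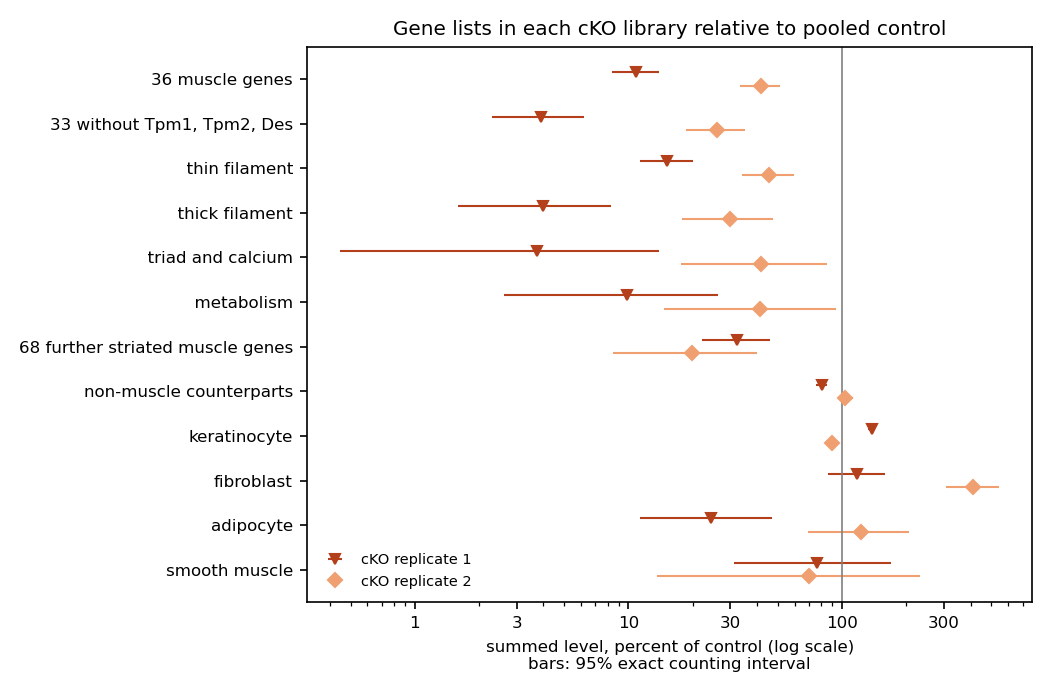
Summed level of each gene list in cKO replicate 1 (triangles) and cKO replicate 2 (diamonds) as a percent of the pooled control level, on a logarithmic axis, with 95% exact counting intervals as bars. The muscle lists lie left of the line at 100%, and the fibroblast list of cKO replicate 2 lies at 409%.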

How the data were processed

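The authors deposited 1 table of raw counts per gene for 4 libraries (QIAseq UPX 3' libraries of epidermal RNA, per the labels' protocols). The submitters' processing notes name Trim Galore 0.6.7, Trimmomatic 0.39, cutadapt 3.7, STAR 2.7.10a, featureCounts 2.0.1 and the build GRCm39, so gene positions are those of the table in GRCm39. The use of strand, of molecular identifiers and of reads with several alignments is not given in the sources used here. Of 455 genes that lie wholly under exons of the opposite strand, 39 had counts. Groups come from the sample titles. The whole table was fitted with edgeR 4.0.16 (R 4.3.3) with filterByExpr (minimum count 10, minimum total 15, leaving 4243 genes with 87.6% of counts), TMM, glmQLFit and glmQLFTest, and genotype was the sole term. Benjamini-Hochberg adjustment ran over all tested genes with a threshold of 0.05. A standard error is the size of the log2 fold change over the root of its F statistic. Sums and percents of control use pooled counts over TMM-scaled library sizes, with exact conditional intervals at 95%. Bounds allow 3 counts over both cKO libraries and leave out counting error in control.

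Every member with at least 10 counts is named with its count in each library, the others briefly, and of other lists the 5 with the highest mean CPM or fewer. Pdgfra, at 0 in all libraries, falls outside this rule, as do some genes marked as named after their values were seen. The members and lists were chosen with earlier results of these data known. Near-identical transcripts (95% identity over 150 bases, blastn 2.17.0, GENCODE M21) were found for Myh7 (Myh6, at 0 in all libraries) and Myl1 (a pseudogene with 1 count). Alternatives were DESeq2 size factors, library totals, a filter at 10 CPM on average or no filter, the replicate block, DESeq2 1.42.0, limma-voom (limma 3.58.1), glmQLFit with legacy set to FALSE and each library left out. The fit was tested on simulated data for this comparison over up to 4243 genes, with 200 genes given log2 changes of 3 or 4 in each of 3 draws. Between 92% and 95.5% of these were recovered, and unchanged genes made up 6% of calls or less. The changes were split around the mean of each gene, unlike genes near 0 in 1 group. The recovery does not carry over to those. In the data Ckm (-4.64), Tnnt3 (-6.98) and Tnni2 (-6.46) had larger log2 changes and were not called.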

Additional observations from a re-analysis of the deposited data

How the results depend on the processing

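The count of muscle genes called lower, 4 in edgeR, was 7 without a count filter, 1 with the replicate block, 2 with DESeq2 and 0 with limma-voom (9 at an unadjusted p under 0.05), and ranged from 2 to 7 when 1 library was left out. No setting called a muscle gene higher. For limma-voom the share of all genes at an unadjusted p was not taken. Over all genes, the 8 lower calls became 15 with library totals, 26 without a filter, 14 with a mean of at least 10 CPM, 1 with the replicate block and 3 with limma-voom, and 4 to 28 when 1 library was left out. The 28 higher calls became 49 without a filter, 16 with the replicate block and 12 with limma-voom, and 27 to 48 when 1 library was left out. Library totals moved the median log2 fold change of all tested genes to -0.24. Of the 11 tested members, 10 kept a negative log2 fold change in all alternatives. Tpm2 turned to -0.17 with library totals, -0.36 with limma-voom, -0.26 without control replicate 2 and -0.99 without cKO replicate 2, and reached 0.89 without cKO replicate 1. The replicate numbers are not known to pair the libraries, and deviations of same-numbered libraries correlated at -0.20. With the numbers crossed, a block chosen after seeing the data, 57 genes were lower and 90 higher, 7 of the lower ones muscle genes. The fast share of isoform counts was 98.9% without genes whose exons overlap another gene. The summed muscle level in cKO, 25.6% of control as a mean over libraries, was 10.6% to 40.6% when 1 library was left out. Depth limits single genes most in cKO replicate 2. Leaving out 1 library leaves an arm of 1, which is assumed to vary like the other group.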
